A study of Mus musculus with 16 samples.

Results

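The initiation and elongation factors of cytosolic translation were described across microglia sorted from 5xFAD mice. The members were all rows of the deposited table whose gene symbol starts with Eif and a digit from 1 to 6, or with Eef and 1 or 2. This gave 64 protein-coding genes of 17951 rows. Microglia positive for Cd11b and Cd45 were sorted from mice injected with Methoxy-X04 (Me-X04), a dye that binds amyloid beta aggregates, and their total RNA was sequenced in 16 libraries. The 7 WT libraries came from wild-type (WT) mice of the 5xFAD strain labelled as 2 months old, and their cells were negative for the dye. The TG Me-X04- group (5 libraries) and the TG Me-X04+ group (4 libraries) came from 5xFAD transgenic mice labelled as 6 months old, and held the dye-negative (non-phagocytic) and dye-positive (phagocytic) cells. All mice, WT included, had received the dye. For 4 animals, both a dye-positive and a dye-negative library exist, as their shared animal labels show.

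The 5xFAD transgenes are driven by a neuronal promoter and not by one of microglia. Age and genotype cannot be told apart in any comparison with WT, and the ages in the study's methods differ from those in the labels. Values are log2 RPKM, the log2 of reads scaled to gene length and to the size of the library, so levels of different genes can be set side by side. The libraries held between 15623664 and 27579017 reads. The members took 0.33 to 0.486% of them, and no member was at 0 reads in any library. The 10 microglia markers had a summed level of 4080 to 8169 RPKM over all libraries. The markers of neurons, astrocytes, oligodendrocytes, endothelium, border macrophages, lymphocytes and neutrophils summed to at most 29.6 RPKM a list. That of border macrophages and monocytes reached 21 RPKM in a TG Me-X04+ library, against at most 9.17 in the other groups. The lymphocyte and neutrophil list had medians of 0.40 (WT), 0.25 (TG Me-X04-) and 5.75 RPKM (TG Me-X04+), with single libraries up to 11.5, 19.3 and 7.17. The endothelial list had medians of 9.86, 1.91 and 1.59 RPKM in the same order. The part of these cells in the results was not tested. Reads of mitochondrial genes took 12.6 to 31.3% of a WT library, 20.6 to 44.8% of a TG Me-X04- library and 31.3 to 56.8% of a TG Me-X04+ library. Their part in the results was not tested. The scaling to reads outside mitochondrial genes, given below, also took the place of the authors' own library scaling. It therefore cannot single out that part. The libraries also fell into a set A of 7 and a set B of 9 along the first principal component, which held 37.8% of the variance within groups, and each group had libraries in both sets. The study used 2 sequencers, and which library ran on which is not given in the sources used here. A lower level in these bulk libraries can come from fewer cells of a type or from less RNA per cell, which cannot be told apart.

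Translation of most mRNAs starts when eIF4 factors bind the cap, eIF2 brings the initiator tRNA to the small ribosomal subunit, eIF3 holds the complex together, and eIF1, eIF1A and eIF5 select the start codon. eEF1A then delivers each further tRNA, eEF1B recharges eEF1A with GTP, and eEF2 moves the ribosome along by one codon. Phosphorylation of eIF2 alpha by one of its kinases, binding of eIF4E by the 4E-BPs and phosphorylation of eEF2 by eEF2 kinase are the textbook brakes on this cycle. Many of the factor mRNAs, like those of ribosomal proteins, begin with a C and a run of pyrimidines, the 5′ terminal oligopyrimidine tract, through which mTORC1 and Larp1 set how often they are translated.

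Start sequences are shown for 9 of the 13 members called below, picked to show starts with and without the letters of this tract. The first 5 run from 10 bases before to 20 bases after the annotated RefSeq start (GRCm38.p6), and the letters CTCTT, searched on the transcribed strand, are in capitals.
Eef1a1: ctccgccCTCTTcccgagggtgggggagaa
Eef2: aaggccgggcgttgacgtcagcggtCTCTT
Eif3f: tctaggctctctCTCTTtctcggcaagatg
Eif4b: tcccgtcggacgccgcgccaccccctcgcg
Eef2k: cccgtgcgtcagtcccgccccagccctggt
They lie at chr9:78481705-78481734 on the minus strand, and on the plus strand at chr10:81176621-81176650, chr7:108934405-108934434, chr15:102073763-102073792 and chr7:120842821-120842850. The windows of Eif4b and Eef2k do not hold CTCTT. For 4 further members the first 20 bases of a coding transcript of the GENCODE annotation are given, with the tract in capitals, defined as a C followed by at least 4 pyrimidines and beginning within the first 5 bases.
Eef1b2-209: CTTTTTTTCCCTCagcgctg
Eif3i-201: agtCTTTTTCCggtcccact
Eif3m-202: CTTTTCCggtcggcgtgttt
Eif2s3x-202: CTTTTCTCTCCgagcaagat
They lie on GRCm38 at chr1:63177130-63177149 (plus), chr4:129600629-129600648 (minus), chr2:105017024-105017043 (minus) and chrX:94212632-94212651 (minus). All are in first exons. Such a tract was present in at least 1 annotated coding transcript of 18 of 64 members (28.1%) and of 2591 of 12337 genes in the table with coding transcripts (21%). Of the 13 called members, 5 had it, Eef1b2, Eif2s3x, Eif3f, Eif3i and Eif3m. The other 8, Eef1a1, Eef1g, Eef2, Eef2k, Eif2ak2, Eif3e, Eif3h and Eif4b, had none at any annotated coding start. Among 50 members with a RefSeq window, CTCTT was in that of 5 (10%), which were Eef1a1, Eef2, Eif2ak1, Eif2b5 and Eif3f, against 4.21% of all tested genes. CTTTT was in 2 windows (4%), those of Eif1ad and Eif2s3x, against 3.07%. In the 300 bases around the start (250 before, 50 after), CACGTG was found on either strand for 12 of the 50 (24%) against 11.5% of tested genes, and TGATGCA for none of the 50 against 2.33%. A match is a description of these letters at an annotated start, which can lie a few bases from the start used in a cell.

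In phagocytic TG Me-X04+ microglia, both elongation factor GTPases, Eef1a1 and Eef2, the exchange factor subunit Eef1b2, the eIF3 subunit Eif3i and the helicase cofactor Eif4b were higher than in TG Me-X04- microglia. With limma on all rows (adjusted p under 0.05, absolute log2FC of at least 0.7), 5 of 64 members were called higher, where 3.44% of all 17951 rows were. None was called lower, where 2.06% of all rows were (5.49% in both directions). At an unadjusted p under 0.05 there were 15 members, against 18.7% of all rows. The median log2FC was 0.12 for the members and -0.09 for all rows, and 42 members had the higher mean in TG Me-X04+ (44.4% of all rows). The members' median changed sign with quantile normalization (-0.032, all rows -0.05) and with scaling to the reads outside mitochondrial genes (-0.16, all rows -0.37). The groups did not overlap for 9 members that were higher (4.80% of all rows) and 1 that was lower (3.14%). Within the 4 animals, 20 members were higher (15.1% of all rows) and 4 lower (13.1%) in TG Me-X04+ in every pair. A fit that takes the animal as a block called 11 members, 10 higher and 1 lower, where it called 11.8% of all rows. Scaled to the reads outside mitochondrial genes, 2 were called higher and 1 lower, where 5.74% of all rows were called. With quantile normalization, 1 was called higher and 1 lower (4.61% of all rows).

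**Figure D1:**
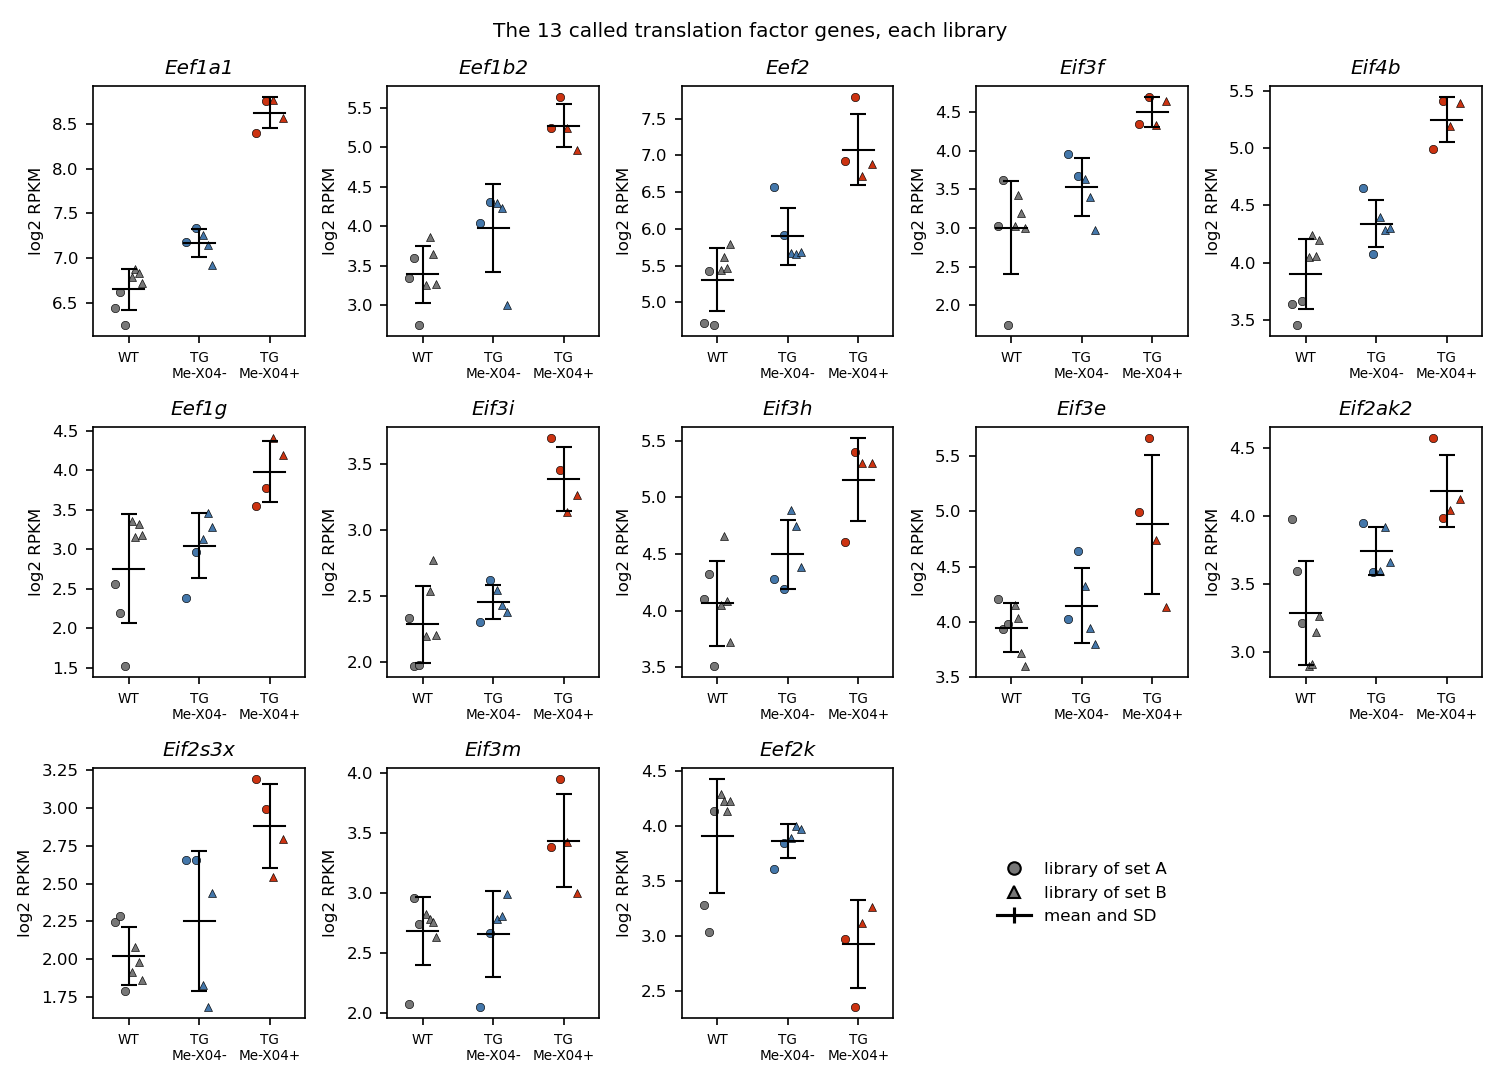
Log2 RPKM of the 13 members called in at least 1 comparison, for each library, with 7 for WT, 5 for TG Me-X04- and 4 for TG Me-X04+. Circles and triangles are libraries of set A and set B, and black bars are mean and SD. For Eef1a1 the 4 TG Me-X04+ libraries sit between 8.40 and 8.77, above all others, and for Eef2k they sit between 2.35 and 3.26, below all TG Me-X04- libraries.

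Among the elongation factors, Eef1a1 (ENSMUSG00000037742, chr9:78478449-78489151, minus strand of GRCm38), the GTPase that carries aminoacyl-tRNA, had the highest mean level of all members. Its level was 6.25, 6.72 and 6.87 log2 RPKM in the lowest, median and highest WT library. Its values were 7.18, 7.33, 7.26, 7.14 and 6.92 in TG Me-X04- 1 to 5, and 8.40, 8.76, 8.77 and 8.57 in TG Me-X04+ 1 to 4. The 3 groups did not overlap, and Eef1a1 was the only member for which TG Me-X04- and WT did not (0.652% of all rows were higher without overlap). The log2FC of TG Me-X04+ against TG Me-X04- was 1.46 (SE 0.18, limma adjusted p = 0.000259), a fold of 2.75. Against WT it was 1.98 (SE 0.17, limma adjusted p = 1.02e-06). Within sets A and B the difference between the TG groups was 1.33 and 1.56. With quantile normalization it was 0.65 and not called (limma adjusted p = 0.103). Eef1a1 shares 39.4% of its 50-base words with 20 other annotated genes, among them Gm13456 and Gm6170, so its reads may have been split among these.

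Because a share among the members does not move with the scaling of a library, the reads of Eef1a1 were also set against those of all 64 genes. Eef1a1 took 6.90% ± 1.58 (SD, n = 7) of the members' reads for WT, 9.56% ± 1.20 (n = 5) for the TG Me-X04- group and 18.7% ± 3.27 (n = 4) for TG Me-X04+. The TG Me-X04+ shares (15.1 to 22.5%) lay above those of the other groups (4.58 to 11.3%). The share of Eif4g2, the member with the next highest mean level, was 16.9% ± 3.74 for WT, 14.8% ± 4.46 for the TG Me-X04- group and 12.5% ± 4.28 for TG Me-X04+, with overlapping groups. Shares are parts of the same total, so a larger share of Eef1a1 lowers those of other members. The mean level of Eif4g2 itself was 6.39, 6.19 and 6.43 log2 RPKM in the same order.

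Eef1b2 (ENSMUSG00000025967, chr1:63176825-63180486, plus strand), the nucleotide exchange subunit of eEF1B, was at 2.75, 3.35 and 3.86 in the lowest, median and highest WT library. It was at 4.04, 4.31, 4.30, 4.23 and 3.00 in TG Me-X04- 1 to 5 and at 5.24, 5.63, 5.24 and 4.97 in TG Me-X04+ 1 to 4. The TG Me-X04+ libraries were the highest, and the fifth TG Me-X04- library lay within the WT range. The log2FC was 1.29 against TG Me-X04- (SE 0.28, limma adjusted p = 0.0107) and 1.88 against WT (SE 0.26, limma adjusted p = 9.04e-05). The call between the TG groups was lost with quantile normalization (0.95, limma adjusted p = 0.0523). Eef1b2 overlaps Ndufs1 on the opposite strand, and whether reads were counted by strand is not given in the sources used here.

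The scaffold subunit Eef1g was called against WT and, between the TG groups, only in fits with a block or a term for the sets. Its mean was 2.75 ± 0.69 (SD, n = 7) for WT, 3.04 ± 0.41 (n = 5) for the TG Me-X04- group and 3.98 ± 0.39 (n = 4) for TG Me-X04+, with log2FC of 1.23 against WT (limma adjusted p = 0.0184) and 0.94 against TG Me-X04- (limma adjusted p = 0.15). The TG Me-X04+ libraries of Eef1g, 3.55 to 4.40, did not overlap those of TG Me-X04- (2.38 to 3.46). With the animal as a block it was called between the TG groups (0.96, limma adjusted p = 0.0307), as it was with a term for the sets (1.02, limma adjusted p = 0.00364). The call against WT was lost without the third TG Me-X04+ library (1.09), with quantile normalization (1.02) and with scaling outside mitochondrial genes (1.07). Eef1g shares 44.2% of its 50-base words with 5 other annotated genes, among them Gm4366, so its reads may have been split too. Of all members, 8 shared more than 20% of their words with other genes. Eef1d, the other exchange subunit, had a log2FC of 0.39 between the TG groups and Eef1e1, a tRNA synthetase scaffold protein, one of -0.12, and neither was called.

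Eef2 (ENSMUSG00000034994, chr10:81176631-81182498, plus strand), the translocation factor, and Eef2k (ENSMUSG00000035064, chr7:120842831-120907450, plus strand), the kinase that inactivates it, had differences of opposite sign. Eef2 was at 4.69, 5.44 and 5.80 in the lowest, median and highest WT library. It was at 6.57, 5.91, 5.67, 5.66 and 5.69 in TG Me-X04- 1 to 5 and at 6.92, 7.79, 6.72 and 6.88 in TG Me-X04+ 1 to 4. All TG Me-X04+ libraries were above all others, and the TG Me-X04- library nearest to them was the first. The log2FC was 1.18 against TG Me-X04- (SE 0.28, limma adjusted p = 0.021) and 1.77 against WT (SE 0.26, limma adjusted p = 0.000191). Between the TG groups, Eef2 was no longer called without TG Me-X04- library 4 (log2FC 1.12) or 5 (1.13) or without TG Me-X04+ library 2 (0.94). It was not called either with quantile normalization (0.53, limma adjusted p = 0.395), with scaling to reads outside mitochondrial genes (0.90, limma adjusted p = 0.0677) or in a fit of these groups alone (1.18, limma adjusted p = 0.0547).

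Eef2k was at 3.03, 4.14 and 4.29 in the lowest, median and highest WT library. It was at 3.61, 3.85, 3.89, 4.00 and 3.98 in TG Me-X04- 1 to 5 and at 2.97, 2.35, 3.12 and 3.26 in TG Me-X04+ 1 to 4. The TG groups did not overlap, while 2 of the set A WT libraries (3.28 and 3.03) lay in the TG Me-X04+ range. Eef2k was called lower against WT (log2FC -0.98, SE 0.26, limma adjusted p = 0.0161), a call lost without the second TG Me-X04+ library (-0.79). Against TG Me-X04- the log2FC was -0.93 (SE 0.28, limma adjusted p = 0.059), and with the animal as a block it was called (-0.92, limma adjusted p = 0.0111). Scaled to reads outside mitochondrial genes it was called too (-1.21, limma adjusted p = 0.0249). Eef2k overlaps the antisense gene Gm15774.

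The difference of 2 members within a library is free of library scaling, and 10 such pairs were compared in 3 comparisons. Eef2 minus Eef2k was 1.40 ± 0.55 (SD, n = 7) for WT, 2.04 ± 0.54 (n = 5) for the TG Me-X04- group and 4.15 ± 0.87 (n = 4) for TG Me-X04+ on the log2 scale. The difference between the TG groups was 2.11 (exact two-sided permutation p = 0.0159, the smallest that 4 against 5 libraries allow), and 0.238 after adjustment over the 30 tests. This test took the libraries as separate units and ignored that 4 animals gave a library to each TG group. Against WT it was 2.75 (exact permutation p = 0.00606, the smallest that 4 against 7 allow, adjusted 0.182). Neither passed the adjustment. Within sets A and B the TG groups differed by 2.18 and 1.89. In the other pairs, among them Eif4a1 and Eif4a2, Eif4e and its inhibitor Eif4ebp1, and Eif5a and Eif5a2, the groups overlapped in every comparison and no test passed the adjustment.

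**Figure D2:**
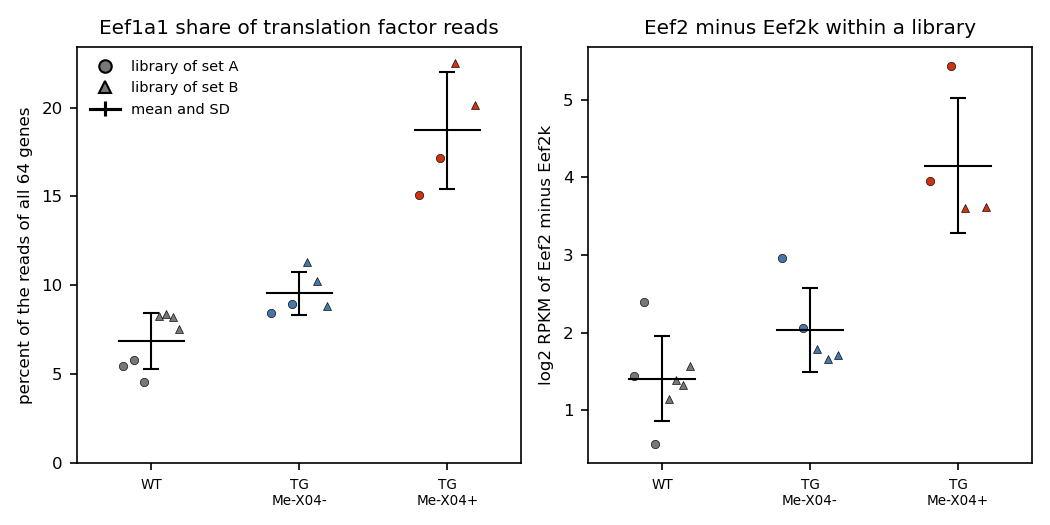
Left, the percent of the reads of all 64 members that fell on Eef1a1, for each library. Right, log2 RPKM of Eef2 minus that of Eef2k in the same library. Circles are set A, triangles set B, bars mean and SD over 7, 5 and 4 libraries. In both, the TG Me-X04+ libraries lie above all others (15.1 to 22.5%, and 3.60 to 5.43).

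The eIF3 complex, the scaffold of the initiation complex, was the role with the most members, 14. They include Eif3j1 and Eif3j2. Eif3j2 shares 91.8% of its 50-base words with Eif3j1 and Gm27325, so the reads of the Eif3j genes may not be separable. In TG Me-X04+ against TG Me-X04-, 13 of the 14 had the higher mean (median log2FC 0.52, range -0.32 to 0.97) and 1 was called, Eif3i. Against WT, 13 of 14 again had the higher mean (median 0.45) and 5 were called, Eif3e, Eif3f, Eif3h, Eif3i and Eif3m, where 8.25% of all rows were called higher. Eif3e, Eif3f, Eif3h and Eif3m belong to the PCI and MPN domain core of the complex, and Eif3i is a WD repeat subunit that sits with Eif3b and Eif3g. Eif3b (log2FC 0.06 between the TG groups) and Eif3g (0.32) were not called in either comparison, and Eif3d, which can itself bind the cap of some mRNAs, was the member with the lower mean (-0.32).

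Eif3i (ENSMUSG00000028798, chr4:129591960-129600648, minus strand) was at 1.97, 2.20 and 2.78 in the lowest, median and highest WT library. It was at 2.30, 2.62, 2.55, 2.43 and 2.38 in TG Me-X04- 1 to 5 and at 3.69, 3.45, 3.14 and 3.27 in TG Me-X04+ 1 to 4. The TG Me-X04+ libraries were above all others. The log2FC was 0.93 against TG Me-X04- (SE 0.21, limma adjusted p = 0.0163) and 1.10 against WT (SE 0.20, limma adjusted p = 0.000983). The call between the TG groups was lost with scaling outside mitochondrial genes (0.66, limma adjusted p = 0.0978, and 0.67 with set membership added), with library weights (0.82, limma adjusted p = 0.0594) and in a fit of these groups alone (0.93, limma adjusted p = 0.0522).

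Eif3f (ENSMUSG00000031029, chr7:108934417-108942951, plus strand) was at 1.74, 3.03 and 3.63 in the lowest, median and highest WT library. It was at 3.96, 3.68, 3.64, 3.41 and 2.97 in TG Me-X04- 1 to 5 and at 4.35, 4.69, 4.33 and 4.64 in TG Me-X04+ 1 to 4. Its libraries did not overlap between the TG groups, with a log2FC of 0.97 (SE 0.31, limma adjusted p = 0.0779). With the animal as a block it was called (0.92, limma adjusted p = 0.0217). Against WT it was 2.82-fold higher (limma adjusted p = 0.00161).

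The other called subunits had lower fold changes. Eif3h was at 4.07 ± 0.38 (SD, n = 7) for WT, 4.50 ± 0.30 (n = 5) for the TG Me-X04- group and 5.15 ± 0.37 (n = 4) for TG Me-X04+, with log2FC of 1.09 against WT (limma adjusted p = 0.00311). Eif3e was at 3.95 ± 0.22, 4.15 ± 0.34 and 4.88 ± 0.63 in the same order, with 0.94 against WT (limma adjusted p = 0.0144), a call lost without the second TG Me-X04+ library (0.68), with quantile normalization (0.68) and when the replicate number entered as a block (0.77, limma adjusted p = 0.0583). Eif3m was at 2.68 ± 0.28, 2.66 ± 0.36 and 3.43 ± 0.39, with 0.75 against WT (limma adjusted p = 0.0368). Leaving out WT library 1, 6 or 7 or TG Me-X04+ library 1, 2 or 3 ended the call of Eif3m (log2FC 0.58 to 0.77), as did 7 other settings, among them quantile normalization (0.62) and scaling outside mitochondrial genes (0.59). Between the TG groups these 3 subunits differed by 0.66, 0.73 and 0.78 and were not called, but Eif3e and Eif3m were called with the animal as a block (0.70 and 0.81, limma adjusted p of 0.0288 and 0.0157). Eif3a, the subunit with the highest mean level, was at 5.13 ± 0.57, 5.05 ± 0.46 and 5.55 ± 0.57 and was not called.

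**Figure D3:**
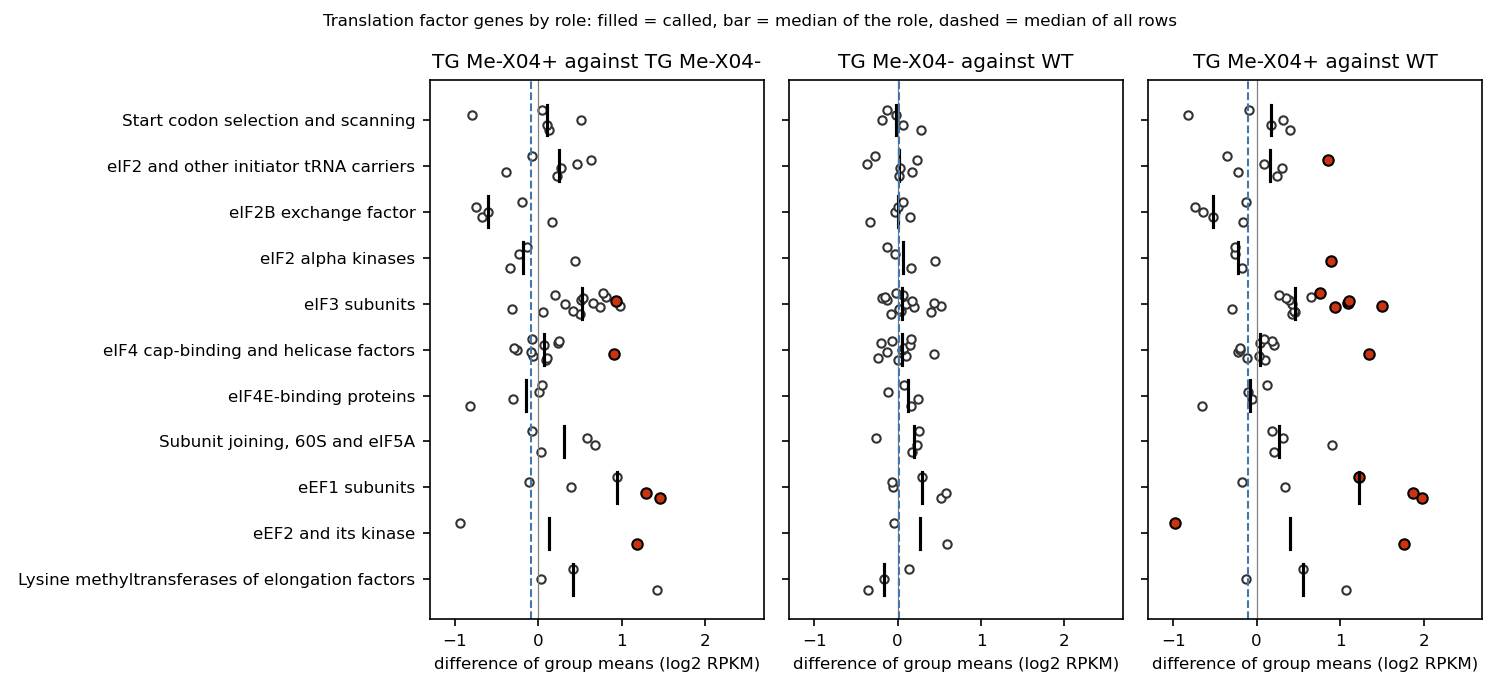
Difference of group means in log2 RPKM for each member, by role and comparison. Filled circles were called, black bars are the median of a role and the dashed line is the median of all 17951 rows. In both TG Me-X04+ comparisons, 4 of 5 genes of the eEF1 role and 13 of 14 eIF3 subunits sit to the right. Their medians against TG Me-X04- were 0.94 and 0.52. The eEF1 role includes the scaffold gene Eef1e1, which sits to the left. Against TG Me-X04-, 4 of 5 eIF2B subunits sit to the left (median -0.61, median SE 0.57). No member was called for TG Me-X04- against WT.

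Of the 11 cap-binding and helicase factors, Eif4b was called in both TG Me-X04+ comparisons and no other was called. Eif4b (ENSMUSG00000058655, chr15:102073773-102097173, plus strand), which stimulates the helicase eIF4A, was at 3.46, 4.05 and 4.25 in the lowest, median and highest WT library. It was at 4.65, 4.08, 4.40, 4.28 and 4.30 in TG Me-X04- 1 to 5 and at 5.00, 5.41, 5.19 and 5.39 in TG Me-X04+ 1 to 4. The TG Me-X04+ libraries did not overlap the others. The log2FC was 0.91 against TG Me-X04- (SE 0.20, limma adjusted p = 0.0126) and 1.34 against WT (SE 0.19, limma adjusted p = 9.53e-05). The call between the TG groups was lost with quantile normalization (0.53, limma adjusted p = 0.228) and with scaling outside mitochondrial genes (0.63, limma adjusted p = 0.0992, and 0.67 with set membership added). The helicases themselves, Eif4a1 and Eif4a2, differed by 0.09 and 0.11 between the TG groups. Eif4a1 shares 28.4% of its 50-base words with 12 other annotated genes, among them Eif4a-ps4, so its reads may have been split.

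Eif4e, the cap-binding protein, was at 1.80 ± 0.33 (SD, n = 7) for WT, 1.67 ± 0.37 (n = 5) for the TG Me-X04- group and 1.57 ± 0.16 (n = 4) for TG Me-X04+, a log2FC of -0.09 between the TG groups (SE 0.27, limma adjusted p = 0.894). Eif4g2, the non-canonical eIF4G relative, was at 6.39 ± 0.45, 6.19 ± 0.62 and 6.43 ± 0.69 and was not called. Of the 4E-BPs, Eif4ebp1 spread widely in TG Me-X04+, with -0.49, 1.69, 3.89 and 2.06 in libraries 1 to 4, against 1.64 to 2.99 in TG Me-X04- and 1.99 to 2.87 in WT. The lowest of these values, which also enters the set A difference, rests on 8 reads of Eif4ebp1, the fewest of any member in any library. Its log2FC between the TG groups was -0.82 (SE 0.57, not called), with -2.15 in set A and 0.47 in set B. Eif4ebp2 (4.42 ± 0.32, 4.67 ± 0.37 and 4.37 ± 0.78) also differed in opposite directions in the 2 sets (-1.36 and 0.63) and was not called.

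For eIF2, only Eif2s3x was called, and only against WT. Eif2s3x, the X-linked gene of the gamma subunit, was at 2.02 ± 0.19 (SD, n = 7) for WT, 2.25 ± 0.46 (n = 5) for the TG Me-X04- group and 2.88 ± 0.28 (n = 4) for TG Me-X04+. The log2FC was 0.86 against WT (SE 0.23, limma adjusted p = 0.0192) and 0.62 against TG Me-X04- (SE 0.25, limma adjusted p = 0.176). The call was lost without the first (0.75) or the second (0.82) TG Me-X04+ library and with scaling outside mitochondrial genes (0.70, limma adjusted p = 0.0512, and 0.68 with set membership added). Eif2s3x shares 34.6% of its 50-base words with 2 other genes. Its Y-linked homologue Eif2s3y was read in every library and was at 3.75 ± 0.34, 3.48 ± 0.22 and 3.40 ± 0.21, a log2FC of -0.08 between the TG groups and -0.35 against WT, not called. Eif2s1, the alpha subunit that the stress kinases phosphorylate, was at 3.52 ± 0.76, 3.55 ± 0.93 and 3.82 ± 0.67 and was not called. Most of its spread lay between the sets, with WT libraries at 3.96 to 4.70 in set A and 2.77 to 3.07 in set B.

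Among the 4 eIF2 alpha kinases, Eif2ak2 (PKR), an interferon-inducible sensor of double-stranded RNA, was called against WT. It was at 2.90, 3.22 and 3.98 in the lowest, median and highest WT library, at 3.95, 3.59, 3.59, 3.92 and 3.66 in TG Me-X04- 1 to 5 and at 4.57, 3.99, 4.04 and 4.13 in TG Me-X04+ 1 to 4. The TG Me-X04+ libraries were above all others, though the lowest of them was next to the highest WT library. The log2FC was 0.89 against WT (SE 0.21, limma adjusted p = 0.00772) and 0.44 against TG Me-X04- (SE 0.23, limma adjusted p = 0.321). Eif2ak3 (PERK), the sensor of the endoplasmic reticulum, was at 1.63 ± 0.42, 1.60 ± 0.21 and 1.37 ± 0.36 (SD, n = 7, 5 and 4). Eif2ak4 (GCN2), the sensor of uncharged tRNA, was at 2.31 ± 0.12, 2.18 ± 0.26 and 2.04 ± 0.26, and neither was called. The 5 subunits of eIF2B, the exchange factor that phosphorylated eIF2 blocks, had a median log2FC of -0.61 between the TG groups and -0.53 against WT. None was called, and the median SE was about as large, 0.57 and 0.53. Between the TG groups 4 had the lower mean and 1 the higher (range -0.75 to 0.17). Their mean levels over all libraries were low, 0.82 to 1.31. Eif2b4, the highest of them, ranged from 0.67 to 1.99 in WT and from 0.43 to 2.33 in TG Me-X04-, and was at -0.91, 0.56, 2.40 and 0.94 in TG Me-X04+ 1 to 4. In sets A and B the TG groups differed by -1.25 and 0.09 for Eif2b2, and by 0.49 and -0.81 for Eif2b5.

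The remaining roles held no called member. Eif5, which makes eIF2 hydrolyse its GTP, was at 5.66 ± 0.29 (SD, n = 7) for WT, 5.53 ± 0.25 (n = 5) for the TG Me-X04- group and 5.57 ± 0.44 (n = 4) for TG Me-X04+. Eif5b, which joins the ribosomal subunits, was at 3.97 ± 1.03, 3.70 ± 0.96 and 4.29 ± 1.22, and its spread also followed the sets, with 4.92 to 5.14 in the set A WT libraries and 3.06 to 3.23 in those of set B. The highest of the 3 methyltransferases, Eef2kmt, was at 2.46 ± 0.39, 2.60 ± 0.48 and 3.02 ± 0.37. Eef1akmt1 had a log2FC of 1.43 between the TG groups that was not called (limma adjusted p = 0.091) and was called with the animal as a block (1.42, limma adjusted p = 0.0365), although the pair of animal 4 went the other way. Averaged over groups, 6 members were higher in set A by more than 0.7 and 10 were lower by more than 0.7.

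All 5 members called between the TG groups, and all 13 called against WT, differed in the same direction within sets A and B. The calls were made on the libraries of both sets, so this agreement is no independent check. How often other rows agreed in this way was not counted. With a term for the sets, 11 members were called between the TG groups, 10 higher and 1 lower (11.9% of all rows).

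**Figure D4:**
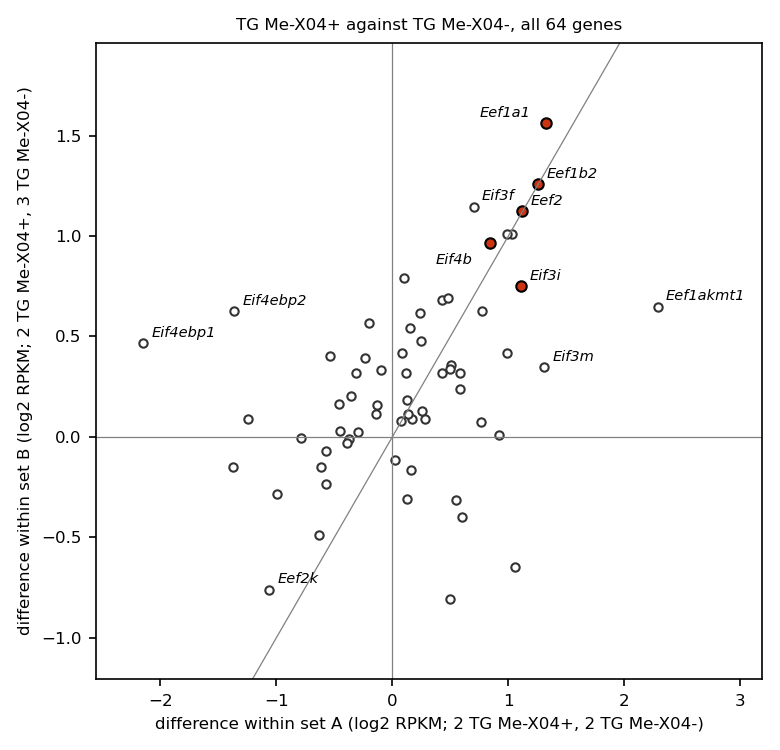
Mean of TG Me-X04+ less that of TG Me-X04- (log2 RPKM) of each of the 64 members within set A (horizontal) and set B (vertical), with the line of equality. Filled circles were called on all libraries. Eef1a1 lies at 1.33 and 1.56, Eef2 at 1.12 and 1.13, and Eef2k at -1.06 and -0.76, while Eif4ebp1 lies at -2.15 and 0.47.

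In TG Me-X04- against WT, no member was called by limma, where 0.201% of all rows were, and 5 members had an unadjusted p under 0.05 (5.18% of all rows). The voom test on recovered reads called none either. The median log2FC was 0.05 for the members and 0.01 for all rows, and 38 members had the higher mean in TG Me-X04- (51.6% of all rows). The 5 were Eef1a1 (log2FC 0.52, limma adjusted p = 0.449), Eef1b2 (0.58, 0.844), Eef2 (0.59, 0.86), Eif4b (0.44, 0.792) and Eif2ak2 (0.45, 0.911). Their differences were unequal in the 2 sets. For sets A and B they were 0.82 and 0.30 for Eef1a1, 0.94 and 0.33 for Eef1b2, 1.29 and 0.09 for Eef2, and 0.77 and 0.19 for Eif4b. For Eif2ak2 set B had the larger difference, 0.67 against 0.18 in set A. Whether the sets differ in this was not tested.

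In TG Me-X04+ against WT, 12 members were called higher (8.25% of all rows) and 1 lower (6.02%), those named above. Both directions together came to 13 members and 14.3% of all rows. At an unadjusted p under 0.05 there were 17 members (27.8% of all rows), and 10 were higher without overlap (6.56%). The median log2FC was 0.18 for the members and -0.11 for all rows, and 40 members had the higher mean in TG Me-X04+ (44.1%). This comparison shares its TG Me-X04+ libraries with the comparison of the TG groups and its WT libraries with that of TG Me-X04- and WT, so their values are side by side and not independent. Group means went up from WT over TG Me-X04- to TG Me-X04+ for 25 members (23.9% of all rows) and down for 9 (27.9%).

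The cytosolic ribosomal protein genes were taken as the nearest group for comparison, and their own start sequences were not counted apart. Of 88 such genes, 33 were called higher in TG Me-X04+ against TG Me-X04- (3.44% of all rows), none in TG Me-X04- against WT (0.189%) and 68 in TG Me-X04+ against WT (8.25%), with median log2FC of 1.13, 0.49 and 1.60. Only 79 of the 88 were protein-coding, as all members are. Among the 79, the calls were 29, 0 and 62 in the same order, and the medians 1.11, 0.49 and 1.59. Among the members, Eef1a1, Eef1b2 and Eef2 were at or above these medians in all 3 comparisons.

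Genes of the pathways around the members were counted from lists of their known members. Of all rows, 3.44% were called higher and 2.06% lower between the TG groups, and 8.25% and 6.02% against WT. Of 22 other cytosolic translation factors, 2 were called higher between the TG groups, Pabpc1, the poly(A)-binding protein (log2FC 1.04, limma adjusted p = 0.00222), and Tpt1 (1.42, limma adjusted p = 0.0021), and the list's median was -0.11. Against WT both were called again (1.40 and 1.82), and Dhps, the first enzyme of eIF5A hypusination, was called lower (-1.37, limma adjusted p = 0.0325). Of 19 integrated stress response genes in the table (24 listed), 2 were called higher between the TG groups, the transcription factor Atf3 (1.84, limma adjusted p = 0.0258) and the serine synthesis enzyme Psat1 (2.47, limma adjusted p = 0.0151), with a list median of -0.37. Atf4, the factor whose translation defines the response, differed by 0.07 in its mRNA, and Ddit3 by -0.62, and neither was called. Against WT, Atf3 (2.94) and Psat1 (3.85) were called higher and Ddit3 lower (-1.08, limma adjusted p = 0.0203).

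Of 21 mTORC1 genes in the table (22 listed), Rragd, a Rag GTPase, was called higher between the TG groups (log2FC 1.92, limma adjusted p = 0.0463), with a list median of 0.09. Against WT, Rragd was called higher (2.28), and Rptor (-0.74) and Lamtor3 (-1.32) were called lower. None of 22 aminoacyl-tRNA synthetase and scaffold genes and none of 10 mitochondrial translation factors was called between the TG groups, with medians of -0.07 and -0.06, and against WT only Gars was (0.76, limma adjusted p = 0.0211). None of the genes of these 5 lists was called in TG Me-X04- against WT.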

How the data were processed

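After trimming with Trim Galore 0.4.4, the authors aligned reads to GRCm38 with STAR 2.5.4b, counted them with featureCounts, filtered low genes and scaled the libraries by TMM with edgeR 3.24.3. They deposited log2 RPKM values for 17951 rows and 16 libraries. Their own comparison columns (log2 fold changes, averages, t, p-values, log odds) were not used. Group differences in these deposited log2 values were fitted with limma 3.58.1 (R 4.3.3; lmFit, eBayes with trend, 3 groups in 1 fit, two-sided, Benjamini-Hochberg over all rows), in place of the study's quasi-likelihood test, which needs counts. A gene was called at an adjusted p below 0.05 where its absolute log2FC also reached 0.7. Same-numbered TG libraries share an animal label, and their deviations correlated (mean r 0.317, 0.292 to 0.329 over 4 pairs). Between the TG groups, pairs from different animals of the same set had a mean r of 0.272 (0.221 to 0.332 over 6 pairs). Pairs across sets had a mean r of -0.282. The correlation hardly separates a shared animal from a shared set, so the pairing rests on the labels. WT numbers mark other animals. Whole reads were recovered from the RPKM steps (largest deviation 2.65e-07) for depths and alternatives. Permutation tests used scipy 1.17.1. That libraries of a group are separate animals is read from their numbered labels, and p-values measure only the spread between these libraries.

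Members, roles, lists and tests were chosen with earlier results of these data known. Members called in any comparison, the highest of each role and 10 fixed members were named in full (26 in all). Eef1akmt1, Eef1d, Eef1e1, Eif2b2, Eif2b5, Eif3b, Eif3d, Eif3g, Eif4a1 and Eif4a2 fall outside this rule and were named after their values were seen. Eif1ad had no role. Positions come from GENCODE M21, a later release than the authors counted on, and start windows from RefSeq (50 of 64 members matched). On simulated data, 83 of 200 genes changed by 1.5 (log2) were called between the TG groups, over 17951 genes, with 5 unchanged ones. The changed genes were drawn from expressed rows of the whole table, and no animal pairs or sets were simulated.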

Additional observations from a re-analysis of the deposited data

Results flagged for a closer look

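In 7 of the 78 groups of libraries examined for the 26 named members (8.97%), the highest or lowest library stood apart from the rest by Dixon's 95% criterion, where chance gives about 1 in 20. Eef1b2 in the fifth TG Me-X04- library was at 3.00 log2 RPKM, with the other 4 at 4.04 to 4.31. Eef2 in the first TG Me-X04- library was at 6.57, with the others at 5.66 to 5.91. Eif3h in the first TG Me-X04+ library was at 4.61, with the others at 5.30 to 5.40. Eef2kmt in the fourth TG Me-X04+ library was at 2.46, with the others at 3.15 to 3.27. In WT, the third library was low for Eif3f (1.74, others 3.00 to 3.63) and high for Eif2s3y (4.43, others 3.32 to 3.79), and the first was low for Eif3m (2.07, others 2.63 to 2.96).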

How the results depend on the processing

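Between the TG groups, 5 members were called. Quantile normalization called 2, scaling to reads outside mitochondrial genes 3, a fit of only the 2 groups 3, the replicate block by animal 11 and a term for the sets 11, and the cause of each change was not tested. The median log2FC of the members moved from 0.12 to -0.032 with quantile normalization and -0.16 with scaling outside mitochondrial genes. With that scaling and a term for the sets, a setting chosen after seeing the data, it was -0.12. A filter at a mean log2 RPKM of 2 gave 0.23, but over fewer members. It dropped those of lower level and left the log2FC of the others unchanged. The median of all rows moved from -0.09 to -0.37 with the scaling, so members should be read against it. For TG Me-X04- against WT the median was 0.16 with the scaling and 0.16 with the sets added. For TG Me-X04+ against WT it was 0.034 with quantile normalization, 0.021 with the scaling and 0.027 with the sets added. Leaving out each library gave 4 to 7, 0 to 0 and 9 to 14 called members in the 3 comparisons, in the order above.

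Eef1a1 and Eef1b2 kept their call between the TG groups in 26 of 27 alternatives each (not with quantile normalization), Eif4b in 24, Eif3i in 23 and Eef2 in 21. Against WT, Eef1a1, Eef1b2, Eef2, Eif2ak2, Eif3f, Eif3h, Eif3i and Eif4b kept it in 29 of 29, Eef2k in 28, Eif3e and Eef1g in 26, Eif2s3x in 25 and Eif3m in 16. No called member changed direction. The number as a replicate block left 5, 0 and 12 called. All members are protein-coding, so that alternative changed nothing. The difference of Eef2 and Eef2k between the TG groups was 2.01 with a pseudocount of 1 and 1.68 to 2.34 without single libraries. On simulated data, 41.5% of genes changed by 1.5 were called between the TG groups at this number of libraries. These genes came from the whole table, where the median SE of this comparison was 0.47, against 0.28 for the members. The 41.5% therefore does not describe the members.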
